A study of Homo sapiens with 15 samples.

Results

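The genes that write, read, and erase DNA methylation were followed in xenograft tumors grown from HCT116, a line of human colon cancer cells, that carried 1 of 5 constructs. The set was fixed by name as DNMT1, DNMT3A, DNMT3B, MBD2, MBD3, MBD4, TET1, TET2, TET3, and UHRF1, and its members on the array are all the non-control probes whose RefSeq accession belongs to one of these genes. Of the 10 genes, 8 had a probe, out of 19483 genes that the array names through RefSeq. DNMT1, DNMT3B, and MBD4 had 1 probe each, MBD2, TET1, and UHRF1 had 2 each, DNMT3A had 3, and TET2 had 4, which makes 16 probes. MBD3 and TET3 had none. A probe was tested where, for at least 1 construct, each of the 3 tumors gave a signal that the scanner software called well above background, and 15 of the 16 probes met this. None of them met it through 1 construct alone, since 14 had such a signal on all 15 arrays and the other one on 14.

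The tumors grew in athymic nude mice from HCT116 cells transfected with Myc-tagged wild type MOAP-1, with the empty pCDNA3 vector, with HA-tagged RASSF1A, or with the MOAP-1 mutants K264R and K278R, in each of which 1 lysine was changed to arginine. There were 3 tumors for each construct, 1 tumor on each of 15 single-color arrays. All groups share the cell line and the host. The transfection was transient, so that the level of the introduced construct in a grown tumor was not fixed, and an excised tumor also holds cells of the mouse, whose RNA can reach the human probes to an unknown degree. In tissue of this kind, fewer cells that use a gene and less of its RNA per cell cannot be told apart.

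DNMT3A and DNMT3B place methyl groups on cytosines of CpG sites that had none, and DNMT1 copies the pattern to the new strand after replication, to which UHRF1 directs it by binding half-methylated DNA. MBD2 binds methylated CpG and brings in the NuRD corepressor complex, and MBD4 binds it and also cuts out thymine left by deamination of methylcytosine. TET1 and TET2 oxidize methylcytosine, the first step of its removal. RASSF1A, 1 of the constructs, is a gene that promoter methylation silences in many cancers.

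Of the 15 probes tested against vector, 5 passed in K264R, 1 in MOAP-1, 1 in K278R, and 0 in RASSF1A tumors, where 34.9%, 30.5%, 20.6%, and 0% of all probes on the array passed. The share in K264R was near that of all probes. In K264R tumors, 1 probe each of DNMT3A, TET1, and UHRF1 fell and 1 probe each of MBD4 and TET2 rose relative to vector tumors. In MOAP-1 tumors the same UHRF1 probe fell, and in K278R tumors MBD2 fell. DNMT1 and DNMT3B, the maintenance enzyme and a de novo enzyme, passed the test in none of the 7 comparisons. For DNMT3A, TET1, UHRF1, and TET2, a further probe of the same gene did not show the change.

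The level of a probe is given here as the log2 of its background-corrected intensity after the 75th percentile of its array was set to 0. Levels of different probes are not comparable, because each probe has its own affinity, so each is followed only across tumors. A probe passed the test, or rose or fell, where its limma adjusted p was below 0.05 in a fit of all 15 arrays, and a difference between 2 constructs is given in log2 units with its standard error (SE) or its 95% interval. The p values measure the spread between tumors of 1 construct. The comparisons against vector share the vector arrays and are therefore not independent of each other.

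Several facts of the arrays bear on what follows. The signal at the 75th percentile lay between 629.9 and 767.9 on the vector arrays, 612.7 and 816.2 on RASSF1A, 798 and 1023 on MOAP-1, 1171 and 1400 on K264R, and at 930, 495.8, and 1152 on the 3 K278R arrays, so that array brightness differed between constructs. K278R tumor 2 stood apart, with a mean correlation of 0.07 with the other K278R tumors across probes centered on their mean. Without it the K278R difference from vector turned from 0.14 to -0.18 for UHRF1 A_23_P208880, from 0.13 to -0.04 for DNMT3B, from 0.03 to -0.10 for DNMT1, and from 0.04 to -0.03 for DNMT3A A_23_P420373, none of which passed with or without it. The K264R arrays lay on a slide of their own, and the vector arrays shared theirs with RASSF1A tumor 3. No MOAP-1 array shared a slide with a K264R or RASSF1A array. Slide and construct therefore cannot be told apart for any MOAP-1 form against vector, nor for MOAP-1 against K264R or RASSF1A. The probe for MOAP1 stood at 0.34, 0.72, and 0.71 in MOAP-1 tumors and at -0.17, -0.53, and -0.13 in vector tumors, a difference of 0.86 (limma adjusted p = 0.000854). It was also higher than in vector tumors in K264R by 0.55 (adjusted p = 0.00928) and in K278R by 0.74 (adjusted p = 0.00509). The RASSF1 probe stood between 1.55 and 1.59 in RASSF1A tumors and between 1.52 and 1.81 in vector tumors, and whether it reads the introduced construct is not given, so it checks nothing. All 13 markers of colon epithelium were kept, and in K264R against vector 1 was higher and 3 were lower. Of 11 stromal fibroblast markers kept out of 14, 0 were higher and 2 lower, of 8 endothelial markers 0 and 1, and of 9 leukocyte markers 0 and 4. In MOAP-1 against vector the counts higher and lower were 0 and 3 for epithelium, 1 and 2 for fibroblasts, 2 and 0 for endothelium, and 1 and 4 for leukocytes, and in K278R they were 1 and 2, 1 and 1, 2 and 0, and 1 and 1. In RASSF1A none passed. The median difference over the fibroblast markers was 1.43 in MOAP-1, 1.34 in K278R, 0.59 in RASSF1A, and 0.21 in K264R, and the part of these markers in the values of the members was not tested. The mean level over the fibroblast markers ran from -2.99 to 0.26 over the 15 tumors, and from -2.99 to -0.9 in the vector tumors alone.

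**Figure D1:**
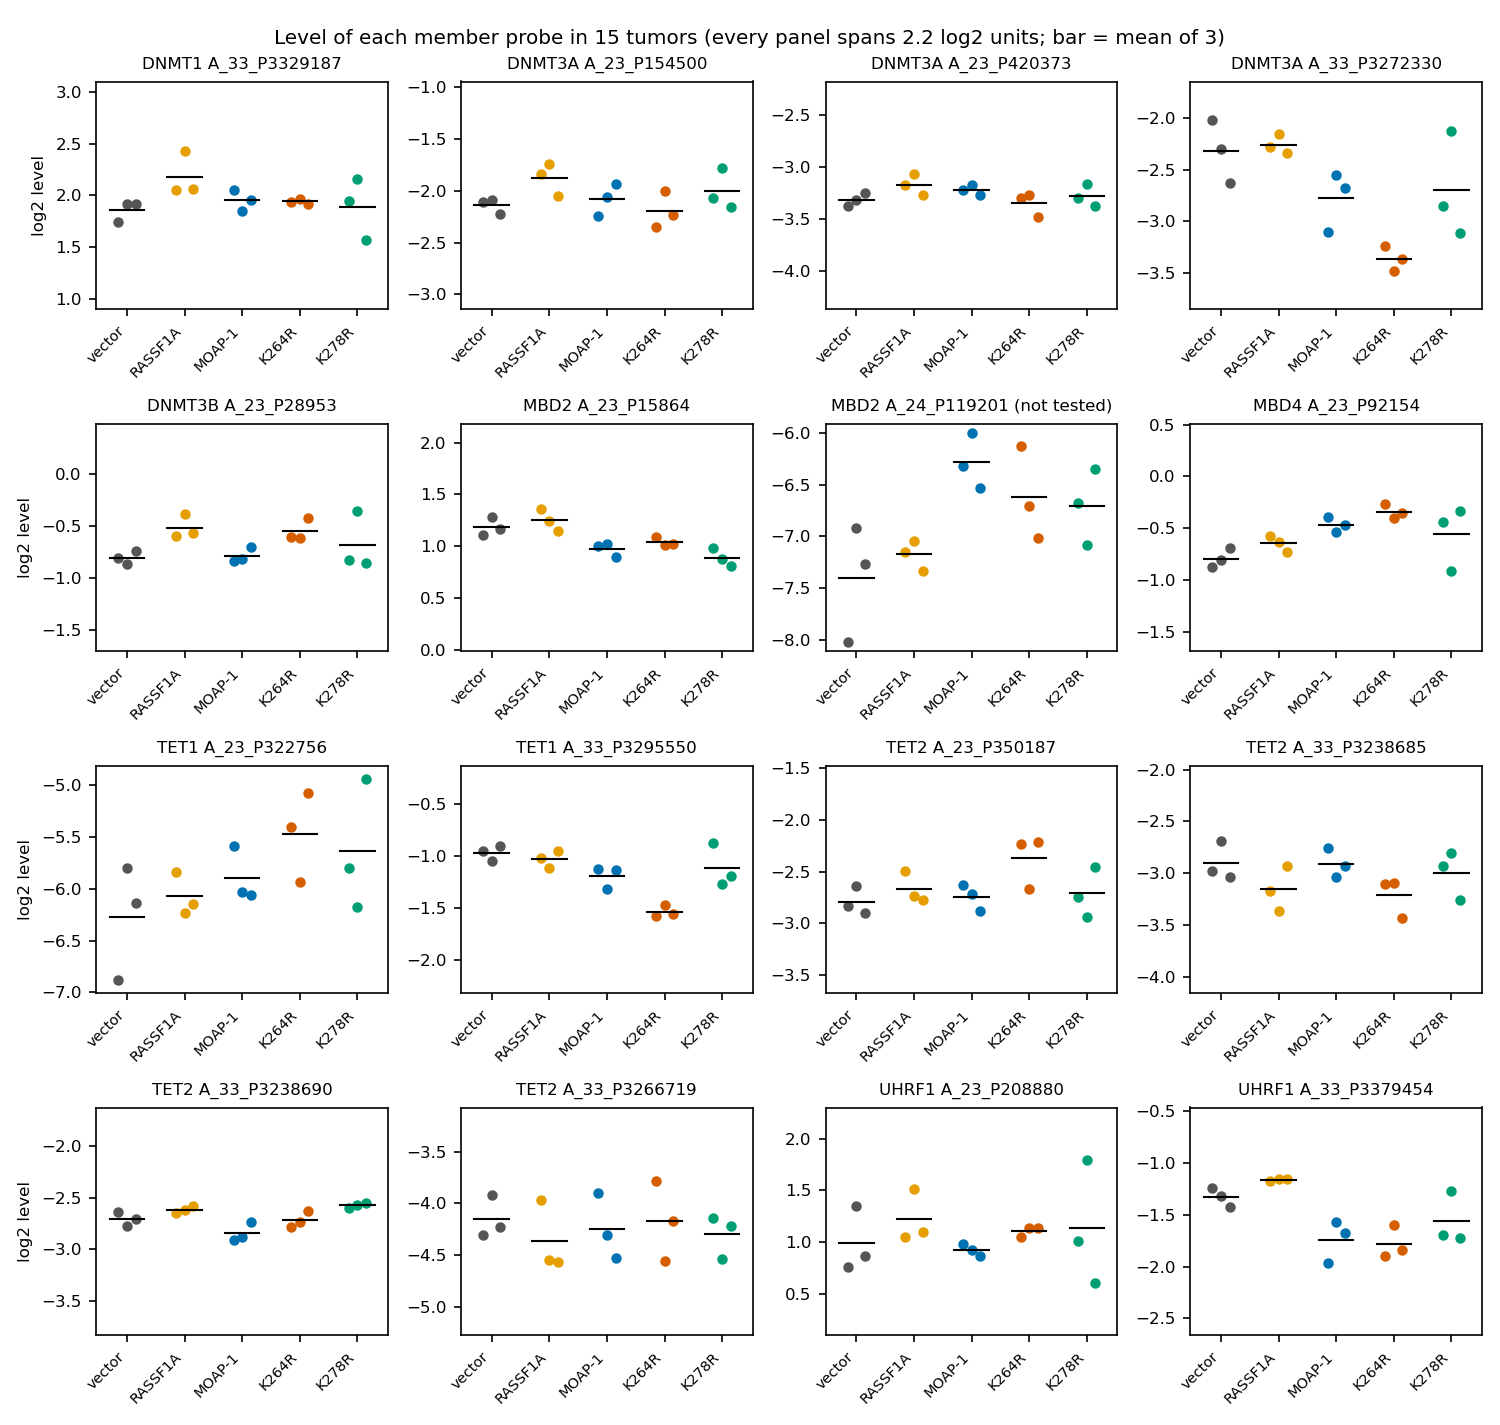
Level of each of the 16 member probes (y axes, log2, array 75th percentile at 0) in the 3 tumors of each construct (x axes), with a bar at the mean of 3 tumors. Every panel spans the same 2.2 log2 units. The 3 K264R tumors lie below all vector tumors for DNMT3A A_33_P3272330 and TET1 A_33_P3295550, while for DNMT1 and the other DNMT3A probes the K264R tumors overlap with the vector tumors.

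DNMT1, the maintenance methyltransferase, showed little movement. Its probe stood at 1.74, 1.92, and 1.92 in vector tumors, at 2.05, 1.85, and 1.96 in MOAP-1 tumors, and at 1.94, 1.97, and 1.92 in K264R tumors. It stood at 1.95, 2.16, and 1.57 in K278R tumors and at 2.05, 2.43, and 2.06 in RASSF1A tumors. The 3 RASSF1A tumors lay above the 3 vector tumors, while the tumors of the MOAP-1 forms overlapped with the vector tumors or met them at 1.92. The RASSF1A difference of 0.32 (95% interval 0.01 to 0.63) did not pass after adjustment (limma adjusted p = 0.404), and against vector the intervals of the other differences ran from -0.28 to 0.40.

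UHRF1, which brings DNMT1 to replicated DNA, was read by 2 probes of the same transcript that did not move alike. Probe A_33_P3379454 stood at -1.24, -1.32, and -1.43 in vector tumors and at -1.17, -1.16, and -1.16 in RASSF1A tumors. It stood at -1.97, -1.57, and -1.68 in MOAP-1 tumors, at -1.90, -1.60, and -1.84 in K264R tumors, and at -1.70, -1.27, and -1.72 in K278R tumors. All MOAP-1 and K264R tumors lay below all vector tumors, and K278R tumor 2 was the only tumor of a MOAP-1 form within the vector range. The probe fell by 0.45 ± 0.14 (SE, n = 3 and 3) in K264R tumors (limma adjusted p = 0.0219) and by 0.41 ± 0.14 in MOAP-1 tumors (adjusted p = 0.0376). In K278R tumors the difference was -0.24 (95% interval -0.53 to 0.06, adjusted p = 0.232), and without tumor 2 it was -0.38 (adjusted p = 0.0505). Probe A_23_P208880 stood at 0.76, 1.35, and 0.87 in vector tumors, 0.98, 0.92, and 0.87 in MOAP-1, 1.05, 1.14, and 1.14 in K264R, 1.01, 1.79, and 0.61 in K278R, and 1.05, 1.51, and 1.1 in RASSF1A. The tumors of every other construct overlapped with the vector tumors. The MOAP-1 tumors lay below all K264R and RASSF1A tumors, but neither difference passed. The K264R difference of this probe from vector was 0.11 (95% interval -0.41 to 0.63), with the sign opposite to that of the first probe. Within an array the first probe minus the second averaged -2.32 in vector tumors and -2.89 in K264R tumors (SD 0.33 and 0.13).

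The fall of UHRF1 A_33_P3379454 changed with single arrays, with array brightness as a covariate, and with some other settings. In K264R against vector it missed the threshold without K264R tumor 1 (-0.39, limma adjusted p = 0.0841), K264R tumor 3 (-0.42, 0.0735), vector tumor 1 (-0.41, 0.0733), or vector tumor 2 (-0.45, 0.0588). In MOAP-1 against vector it missed it without MOAP-1 tumor 1 (-0.29, 0.141), MOAP-1 tumor 3 (-0.44, 0.0624), vector tumor 1 (-0.37, 0.106), vector tumor 2 (-0.40, 0.0955), or K264R tumor 3 (-0.41, 0.0503). With the log2 of the array 75th percentile as a covariate the differences were -0.11 (adjusted p = 0.671) for K264R and -0.24 (0.161) for MOAP-1, and UHRF1 A_23_P208880 then rose by 0.87 in K264R tumors (adjusted p = 0.02). With normexp the differences of A_33_P3379454 were -0.42 (limma adjusted p = 0.645) for K264R and -0.69 (0.205) for MOAP-1. Both passed with spots of extreme local background also left out. The MOAP-1 call was also lost with only the arrays compared (limma adjusted p = 0.0552) and in the methods' t-test after adjustment (0.108).

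UHRF1 is a gene of dividing cells. In K264R and MOAP-1 tumors, markers of proliferating cells moved opposite to UHRF1 probe A_33_P3379454. Probe A_23_P208880 differed from vector by 0.11 in K264R, -0.07 in MOAP-1, and 0.14 in K278R tumors, and passed in none. Of 20 such markers, 12 were higher in K264R, 10 in MOAP-1, 6 in K278R, and 0 in RASSF1A tumors than in vector tumors, and none was lower. Of all genes, each by its brightest probe, 16.2%, 15.4%, and 11.3% were higher in K264R, MOAP-1, and K278R. The shares lower were 18.2%, 14.1%, and 8.03%. Their mean level lay between 0.24 and 0.34 in vector tumors and between 0.83 and 0.94 in K264R tumors. The part of this in the UHRF1 values was not tested.

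The promoters of UHRF1 and MBD4 are shown because UHRF1 probe A_33_P3379454 and the MBD4 probe moved in opposite directions in K264R tumors. UHRF1 probe A_23_P208880 did not show the fall (0.11, not passed). The arrays measured RNA and not methylation, so the sequences are given as the CpG context of the genes. Each is the 250 bases before a RefSeq start, from the promoter table of GRCh38.p14, 5′ to 3′ on the strand of the gene. The UHRF1 window lies at chr19:4909894-4910143 on the plus strand, 1 of 3 UHRF1 starts in the table. It was chosen among the 3 because it alone holds the E2F-type letters TTTCGCGC. Its capitals mark these letters, which begin 160 bases before the start. The MBD4 window lies at chr3:129439949-129440198 on the minus strand, and its capitals mark ATTGG, the CCAAT box read on the other strand, which begins 129 and 80 bases before the start.
UHRF1: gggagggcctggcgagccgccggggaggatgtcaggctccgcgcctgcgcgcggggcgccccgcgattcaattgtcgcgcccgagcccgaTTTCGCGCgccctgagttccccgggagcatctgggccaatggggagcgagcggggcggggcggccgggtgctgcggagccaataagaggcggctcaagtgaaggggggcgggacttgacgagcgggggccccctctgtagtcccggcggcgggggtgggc
MBD4: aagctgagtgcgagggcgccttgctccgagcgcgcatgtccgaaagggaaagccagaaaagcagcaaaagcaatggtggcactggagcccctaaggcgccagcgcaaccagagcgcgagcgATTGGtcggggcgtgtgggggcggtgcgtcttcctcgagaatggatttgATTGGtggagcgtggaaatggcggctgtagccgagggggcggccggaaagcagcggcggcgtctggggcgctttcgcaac

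The UHRF1 window holds 32 CpG sites, more than 90.5% of the 35116 windows of all genes, and the MBD4 window 26, more than 80.4%. The median over all genes was 11. The table held 21 windows for the 10 genes, from 3 CpG sites at DNMT3B to 41 at another UHRF1 start, and 16 of the 21 lay above that median. TTTCGCGC was searched on both strands and occurred in 1 of the 21 windows and in 0.439% of all windows. CCAAT occurred in 8 of the 21 and in 32% of all windows, and GGGCGG in 13 and in 42.6%. A match of letters says nothing of a factor that binds there.

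DNMT3A, a de novo methyltransferase, gave the largest change of the set, but in 1 of its 3 probes. Probe A_33_P3272330 stood at -2.02, -2.30, and -2.63 in vector tumors and at -2.28, -2.16, and -2.34 in RASSF1A tumors. It stood at -3.24, -3.48, and -3.36 in K264R tumors, at -3.10, -2.55, and -2.68 in MOAP-1 tumors, and at -2.85, -2.13, and -3.11 in K278R tumors. The K264R tumors were the 3 lowest of the 15, the MOAP-1 tumors reached into the vector range, and K278R tumor 2 lay within it. In K264R tumors the probe fell by 1.04 ± 0.23 (SE), which is 2.06-fold lower (95% interval -1.53 to -0.56, limma adjusted p = 0.0034), and this call held without each of the 15 arrays in turn. With normexp background correction it was -0.74 and did not pass (adjusted p = 0.645), where 3.14% of all probes passed. With spots of extreme local background also left out it passed, as did 57.7% of all probes. The differences in MOAP-1 (-0.46, adjusted p = 0.138) and K278R (-0.38, adjusted p = 0.241) did not pass, and without K278R tumor 2 the K278R difference did (-0.66, adjusted p = 0.0289). With array brightness as a covariate the K264R difference was -0.35 (adjusted p = 0.263).

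Probe A_23_P154500 is assigned to the same DNMT3A transcript and stood at -2.11, -2.09, and -2.22 in vector tumors, -2.24, -2.06, and -1.93 in MOAP-1, -2.35, -2.0, and -2.23 in K264R, -2.07, -1.78, and -2.16 in K278R, and -1.84, -1.74, and -2.05 in RASSF1A. The K264R and vector tumors overlapped, and their difference was -0.05 (95% interval -0.34 to 0.23). The third DNMT3A probe, assigned to another transcript, ranged from -3.48 to -3.07 over all 15 tumors and passed in no comparison. Within an array, A_33_P3272330 minus A_23_P154500 averaged -0.18 ± 0.25 (SD) in vector tumors and -1.17 ± 0.30 in K264R tumors. Probe sequences were not used here, so where on the transcript each probe lies cannot be stated.

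DNMT3B, the other de novo methyltransferase, stood at -0.81, -0.87, and -0.74 in vector tumors, at -0.84, -0.82, and -0.70 in MOAP-1 tumors, and at -0.61, -0.62, and -0.42 in K264R tumors. It stood at -0.83, -0.35, and -0.86 in K278R tumors and at -0.60, -0.38, and -0.57 in RASSF1A tumors. The K264R and RASSF1A tumors lay above the vector tumors, and K278R tumor 2 lay far above the other K278R tumors. The differences from vector were 0.25 in K264R (95% interval -0.03 to 0.53, limma adjusted p = 0.149) and 0.29 in RASSF1A (0.01 to 0.57, adjusted p = 0.404), and neither passed. The K264R difference passed without K278R tumor 2 (adjusted p = 0.0461) and was 0.55 with array brightness as a covariate (adjusted p = 0.0355).

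MBD2, a methyl-CpG reader, fell in K278R tumors. Its probe A_23_P15864 stood at 1.11, 1.28, and 1.17 in vector tumors, at 0.98, 0.88, and 0.81 in K278R tumors, and at 1.36, 1.24, and 1.15 in RASSF1A tumors. It stood at 1.00, 1.02, and 0.90 in MOAP-1 tumors and at 1.09, 1.01, and 1.02 in K264R tumors. All 9 tumors of the MOAP-1 forms lay below all 3 vector tumors. The K278R difference was -0.29 ± 0.09 (SE, limma adjusted p = 0.0336), the MOAP-1 difference -0.21 (95% interval -0.40 to -0.02, adjusted p = 0.0866), and the K264R difference -0.15 (-0.33 to 0.04, adjusted p = 0.221). The K278R call was lost without K278R tumor 2 (-0.29, adjusted p = 0.0557), K278R tumor 3 (-0.25, 0.101), vector tumor 2 (-0.25, 0.137), vector tumor 3 (-0.30, 0.0606), or K264R tumor 3 (-0.29, 0.0505). Normexp lost it too (-0.17, limma adjusted p = 0.382), also without spots of extreme local background (-0.29, 0.0655). It was lost as well with only the arrays compared (limma adjusted p = 0.141) and in the methods' t-test after adjustment (0.148).

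The second MBD2 probe, A_24_P119201, assigned to another transcript, was near background. It was well above background in 2 MOAP-1, 2 K264R, and 2 K278R tumors and in 0 vector and 0 RASSF1A tumors. It was therefore not tested. Its mean level was -6.28 in MOAP-1 tumors. For a fold, each vector or RASSF1A tumor was set to the larger of its own signal and the lowest signal called well above background. The MOAP-1 mean was then 1.21-fold above vector and 1.73-fold above RASSF1A tumors. It includes 1 tumor in which the probe was not well above background, so these folds are not lower bounds. The mean was -6.62 in K264R and -6.70 in K278R tumors, below the mean of -6.56 that this setting gives for vector, so no fold is given for them.

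MBD4, a reader that is also a DNA glycosylase, rose in K264R tumors. Its probe stood at -0.88, -0.81, and -0.69 in vector tumors, at -0.27, -0.40, and -0.35 in K264R tumors, and at -0.39, -0.54, and -0.47 in MOAP-1 tumors. It stood at -0.44, -0.91, and -0.33 in K278R tumors and at -0.58, -0.63, and -0.73 in RASSF1A tumors. All K264R and MOAP-1 tumors lay above the vector tumors, and K278R tumor 2 was the lowest of the 15. The rise in K264R was 0.45 ± 0.13 (SE), or 1.37-fold (limma adjusted p = 0.0154), and the MOAP-1 difference was 0.33 (95% interval 0.05 to 0.60, adjusted p = 0.0714). In K278R the difference was 0.23 (adjusted p = 0.216), and without tumor 2 it was 0.40 and passed (adjusted p = 0.0133). The MOAP-1 difference also passed without K278R tumor 2 (adjusted p = 0.0119) or tumor 3 (0.0492), which enter it only through the shared spread. The K264R call was lost without K264R tumor 1 (0.42, adjusted p = 0.0569) or vector tumor 1 (0.41, 0.0576), and with array brightness as a covariate the difference was 0.09 (adjusted p = 0.664). With normexp the K264R difference was 0.36 and did not pass (limma adjusted p = 0.317). It passed with spots of extreme local background also left out.

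**Figure D2:**
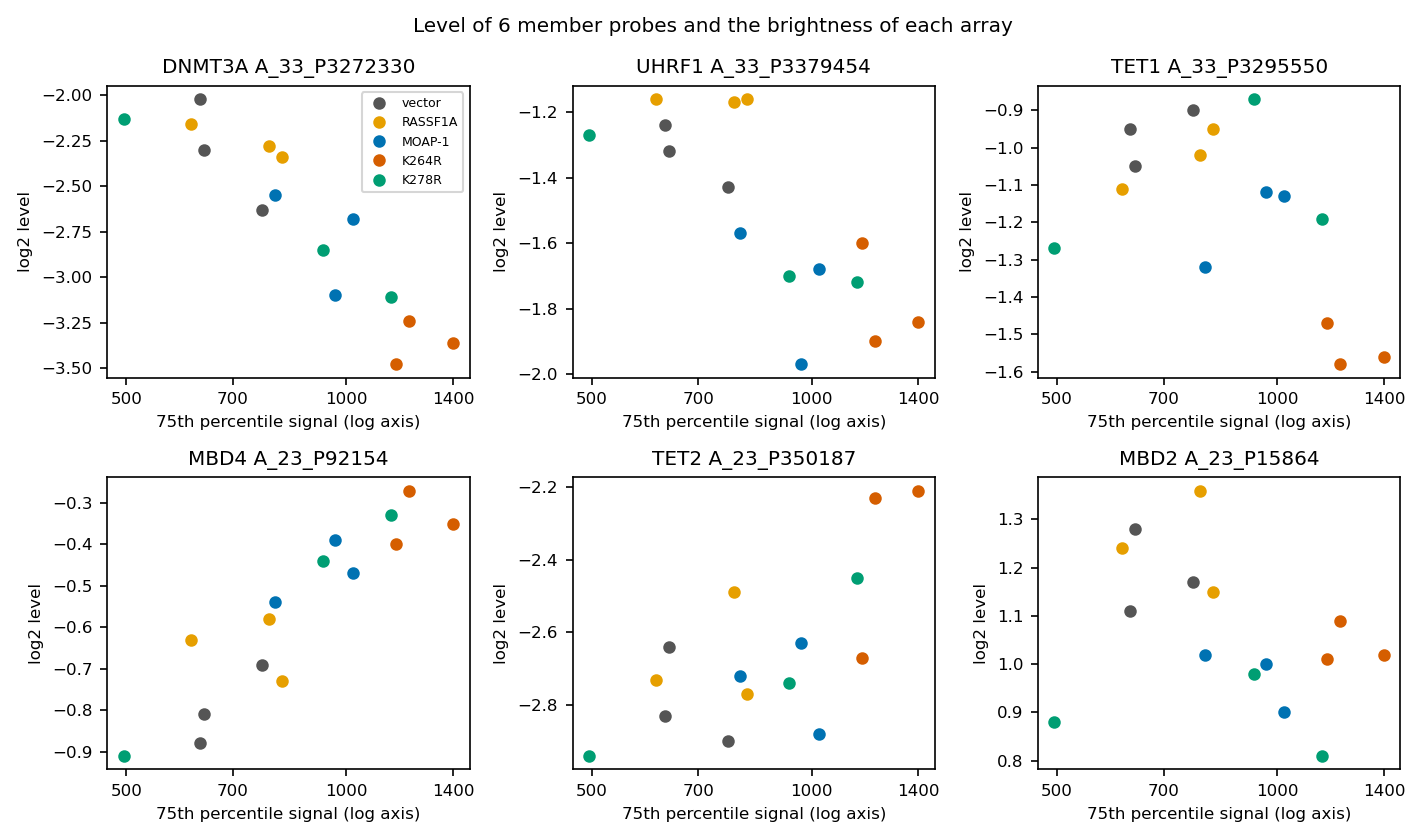
Level of 6 member probes (y axes, log2) against the 75th percentile signal of the array (x axes, log axis), 1 point a tumor and 1 color a construct. K264R arrays are the brightest. The dim array of K278R tumor 2 lies with or beyond the vector and RASSF1A tumors for DNMT3A, UHRF1, MBD4, and TET2 but not for MBD2 or TET1.

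TET1, an eraser, fell in K264R tumors by 1 of its 2 probes. Probe A_33_P3295550 stood at -0.95, -1.05, and -0.90 in vector tumors and at -1.58, -1.47, and -1.56 in K264R tumors. It stood at -1.12, -1.32, and -1.13 in MOAP-1 tumors, at -0.87, -1.27, and -1.19 in K278R tumors, and at -1.02, -1.11, and -0.95 in RASSF1A tumors. The K264R tumors were the 3 lowest of the 15 and lay apart from every other tumor. The probe fell by 0.57 ± 0.11 (SE), or 1.49-fold (95% interval -0.81 to -0.34, limma adjusted p = 0.00156). The call held without each of the 15 arrays in turn and with array brightness as a covariate, where the difference was -0.74 (adjusted p = 0.0109). With normexp background correction it was -0.47 and did not pass (adjusted p = 0.527), where 3.14% of all probes passed. With spots of extreme local background also left out it passed, as did 57.7% of all probes. In K278R tumors the difference was -0.14 (adjusted p = 0.362), and without tumor 2 it was -0.07 (adjusted p = 0.707). In MOAP-1 tumors the difference was -0.22 (-0.46 to 0.01, adjusted p = 0.138). The second TET1 probe, A_23_P322756, was dim and ranged from -6.88 to -4.94. It was assigned to the same transcript, and its K264R difference was in the other direction (0.81, 95% interval 0.10 to 1.51, adjusted p = 0.0709). This probe passed as higher without K264R tumor 2 (1.03, adjusted p = 0.0405), K278R tumor 3 (0.81, 0.0381), or vector tumor 2 (1.04, 0.0441). With array brightness as a covariate the difference was 0.02 (adjusted p = 0.982), and with normexp it was -0.64 (adjusted p = 0.649).

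TET2, a further eraser, was read by 4 probes, none of which passed in MOAP-1, K278R, or RASSF1A tumors against vector. Probe A_23_P350187 stood at -2.83, -2.64, and -2.90 in vector tumors and at -2.23, -2.67, and -2.21 in K264R tumors. It stood at -2.63, -2.72, and -2.88 in MOAP-1 tumors, at -2.74, -2.94, and -2.45 in K278R tumors, and at -2.49, -2.73, and -2.77 in RASSF1A tumors. K264R tumor 2 lay within the vector range and the other K264R tumors above it. The K264R difference of 0.42 ± 0.15 (SE) was just past the threshold (limma adjusted p = 0.0468). It missed it without K264R tumor 1 or 3, vector tumor 1 or 3, any MOAP-1 tumor, K278R tumor 1, or RASSF1A tumor 2 or 3, with differences of 0.34 to 0.42 and adjusted p values of 0.0506 to 0.165. With array brightness as a covariate it was 0.16 (adjusted p = 0.625). The other 3 TET2 probes differed between K264R and vector by -0.31, -0.01, and -0.02, and none of them passed in that comparison.

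Counted over the set, 5 of the 15 probes passed in K264R against vector, where 34.9% of all 30591 probes tested passed. Of these, 2 were higher and 3 lower, against 15.3% and 19.7% of all probes. Only DNMT3A A_33_P3272330 also reached 1.5-fold, against 19.5% of all probes. In MOAP-1 against vector 1 of 15 passed, against 30.5%, and in K278R against vector 1 of 15, against 20.6%. Without single arrays the counts moved. In K264R against vector the count was 2 without K264R tumor 1 or vector tumor 1 and 3 without K264R tumor 3. In MOAP-1 against vector it was 0 without MOAP-1 tumor 1 or 3, vector tumor 1 or 2, or K264R tumor 3, and 2 without K278R tumor 2 or 3. In K278R against vector it was 0 without K278R tumor 3, vector tumor 2 or 3, or K264R tumor 3, and 2 without K278R tumor 2. No member probe reached 1.5-fold as well in MOAP-1 or K278R against vector, against 16.6% and 10.9% of all probes. In RASSF1A against vector 0 of 15 passed in limma, against 0% of all probes, and 2 of 15 had an unadjusted p below 0.05 (DNMT1 and DNMT3B, both higher), as did 3696 of all probes. The methods' t-test gave 2 unadjusted (DNMT3B and UHRF1 A_33_P3379454), against 7.26% of all probes, and 0 after Benjamini-Hochberg adjustment, as for all probes. Over the 5 constructs together, the F test passed 4 of 15 probes, against 43.3%, namely TET1 A_33_P3295550 (adjusted p = 0.00584), DNMT3A A_33_P3272330 (0.00825), UHRF1 A_33_P3379454 (0.00912), and MBD2 A_23_P15864 (0.0214).

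The median size of the difference from vector over the member probes was 0.10 in MOAP-1 tumors, against 0.28 over all probes, 0.25 against 0.29 in K264R, 0.14 against 0.24 in K278R, and 0.17 against 0.14 in RASSF1A.

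**Figure D3:**
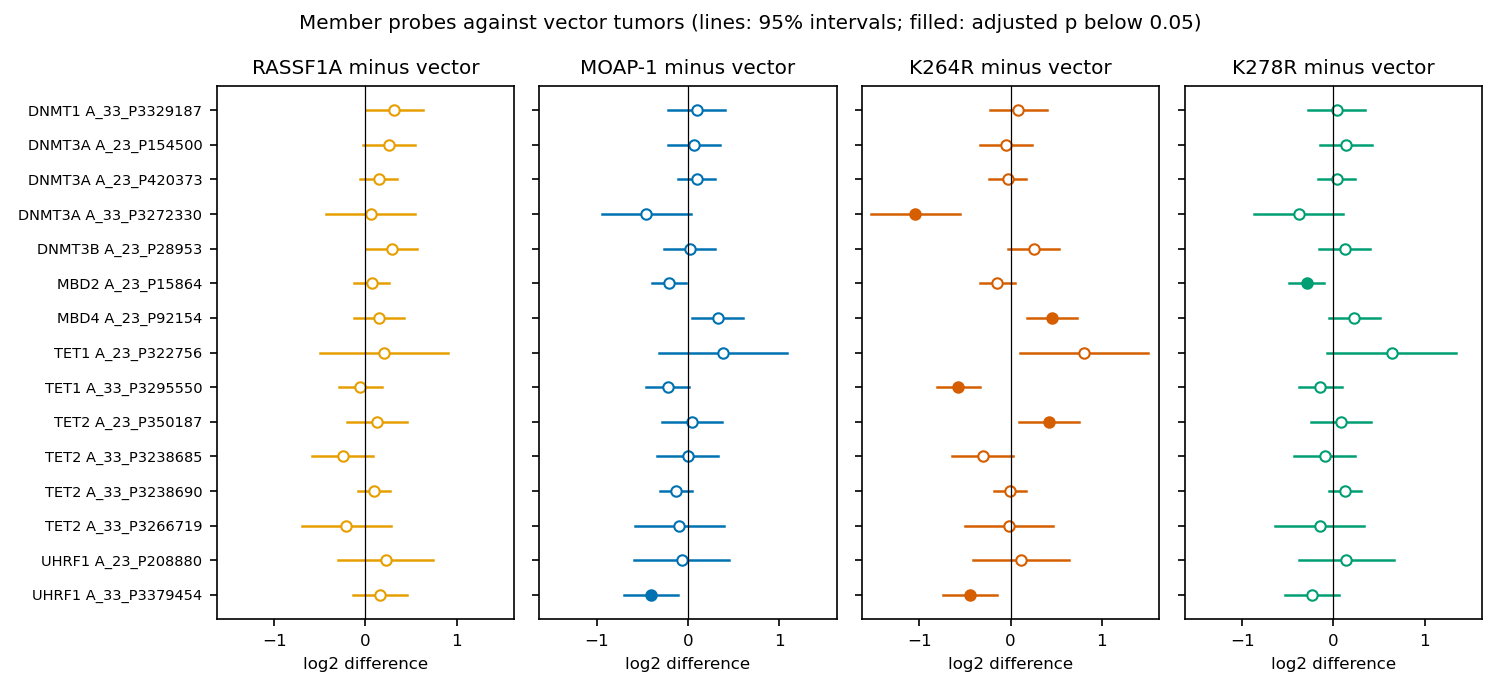
Difference from vector tumors (x axes, log2) of the 15 tested member probes (rows) in each of the other constructs, with 95% intervals as lines and probes of adjusted p below 0.05 filled. Filled points are 5 in K264R, 1 in MOAP-1, 1 in K278R, and 0 in RASSF1A, where 34.9%, 30.5%, 20.6%, and 0% of all probes passed.

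Whether the lysine mutants differed from wild type MOAP-1 was read from direct comparisons. In MOAP-1 against K264R 0 of 15 member probes passed in limma, against 0.00327% of all probes, which is 1 probe. The nearest were TET1 A_33_P3295550, higher in MOAP-1 tumors by 0.35 (95% interval 0.11 to 0.59, unadjusted p = 0.00676 and adjusted p = 0.377 in limma), and DNMT3A A_33_P3272330, higher by 0.58 (0.10 to 1.07, adjusted p = 0.416). TET2 A_23_P350187 was lower by 0.38 (adjusted p = 0.427), so that 3 of 15 had an unadjusted p below 0.05, as did 3287 of all 30591 probes. The intervals of these 3 do not contain 0, and the calls in K264R and not in MOAP-1 tumors do not by themselves show that the constructs differ. In MOAP-1 against K278R 0 of 15 passed in limma, against 0% of all probes, and 1 had an unadjusted p below 0.05, TET2 A_33_P3238690 (-0.27, adjusted p = 0.462), as did 2821 of all probes. The methods' t-test gave 4 unadjusted for MOAP-1 against K264R, against 11.8% of all probes, and 1 for MOAP-1 against K278R, against 6.07%, and 0 after adjustment in both.

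Against RASSF1A tumors, 3 of 15 member probes passed in MOAP-1 tumors, against 37.2% of all probes, and 0 also reached 1.5-fold, against 21.2%. All 3 were lower in MOAP-1. The count was 5 without K278R tumor 2 and 1 without RASSF1A tumor 1 or 2. The other tested probes of the same genes did not pass. They differed by -0.29 for UHRF1 A_23_P208880 and by -0.08, 0.25, and 0.11 for TET2. The second MBD2 probe was near background and not tested, and its fold is given above with its limit. UHRF1 A_33_P3379454 was lower by 0.58 (95% interval -0.87 to -0.28, limma adjusted p = 0.00526), with the 3 RASSF1A tumors the highest of the 15. This call held without each array in turn and with array brightness as a covariate (-0.45, adjusted p = 0.00956). It did not hold with normexp background correction (-0.55, adjusted p = 0.435), where 8.17% of all probes passed. With spots of extreme local background also left out it held, where 26.9% of all probes passed. MBD2 A_23_P15864 was lower by 0.28 (adjusted p = 0.0246), and without MOAP-1 tumor 3, RASSF1A tumor 1, or RASSF1A tumor 2 its adjusted p was 0.0833, 0.106, and 0.0575. TET2 A_33_P3238690, which ranged from -2.91 to -2.55 over all tumors, was lower by 0.23 (adjusted p = 0.0434). It missed the threshold without 10 of the 15 arrays taken out singly, which were all K264R and all RASSF1A tumors, MOAP-1 tumors 1 and 2, and vector tumors 2 and 3 (adjusted p 0.0516 to 0.129). The scan of RASSF1A tumors 1 and 2 took place on another day than the other scans. With scan day as a block the comparison therefore rests on RASSF1A tumor 3 alone, and only the differences are given. They were -0.58 for UHRF1 A_33_P3379454, -0.18 for MBD2 A_23_P15864, and -0.26 for TET2 A_33_P3238690.

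**Figure D4:**
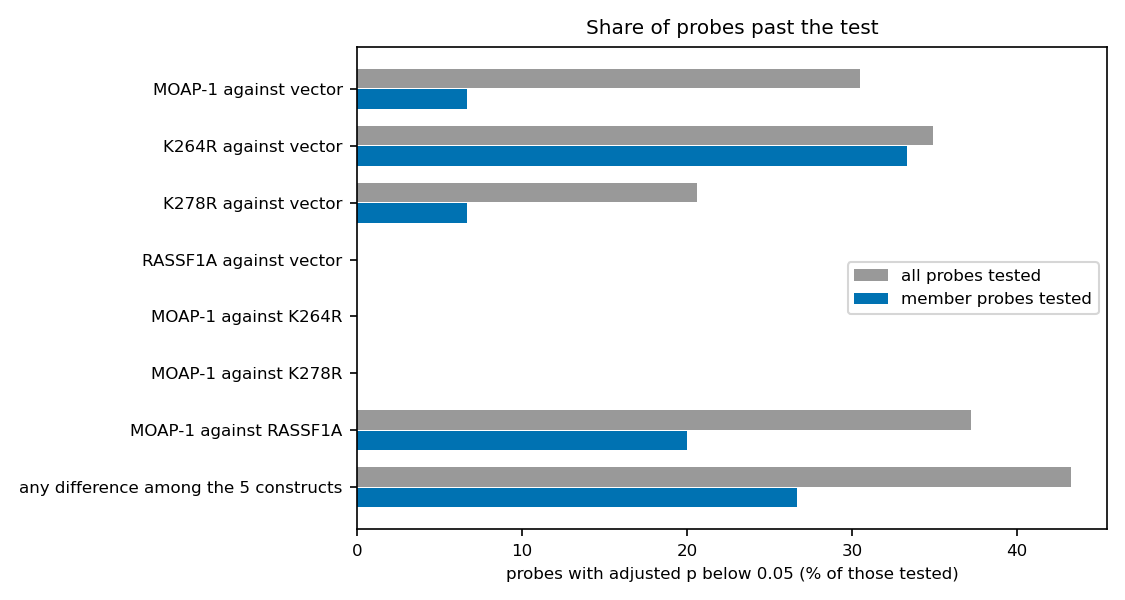
Share of probes with adjusted p below 0.05 (x axis, %) in each comparison (rows), for all 30591 probes tested (gray) and the 15 member probes (blue). In the comparisons where many probes passed, 30.5%, 34.9%, 20.6%, and 37.2% of all probes did, against 1, 5, 1, and 3 of 15 member probes.

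The partners of these enzymes were counted by the brightest probe of each gene, against all 18021 genes counted in the same way. Of those, 16.2% were higher and 18.2% lower in K264R, 15.4% and 14.1% in MOAP-1, and 11.3% and 8.03% in K278R than in vector tumors. The methyl donor cycle makes S-adenosylmethionine, the source of the methyl groups. Of its 10 genes, 4 rose and 1 fell in K264R, 4 and 1 in MOAP-1, and 2 and 1 in K278R tumors, with median differences of 0.23, 0.29, and 0.21 against -0.02, 0.01, and 0.04 over all genes. In K264R tumors MAT2B, a subunit of methionine adenosyltransferase, rose by 1.35 ± 0.19 (SE, limma adjusted p = 0.000219) and AHCY, which clears the product that inhibits methyltransferases, by 1.21 ± 0.28 (adjusted p = 0.00536), while MTR, methionine synthase, fell by 0.48 ± 0.12 (adjusted p = 0.00626).

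Among 13 maintenance and targeting partners, 2 rose and 0 fell in each of K264R, MOAP-1, and K278R tumors. They were PCNA, the replication clamp (0.69 ± 0.12 in K264R, limma adjusted p = 0.000717), and SUV39H1, a histone methyltransferase (0.82 ± 0.26, adjusted p = 0.0252). Of the 7 other methyl-CpG readers, ZBTB33, known as Kaiso, rose by 1.52 ± 0.46 in K264R tumors (adjusted p = 0.0203) and MBD6 fell by 0.78 ± 0.11 (adjusted p = 0.000199). MBD6 was the 1 reader that also fell in MOAP-1 (-0.80) and K278R (-0.47), and MBD1 rose in MOAP-1 (0.44). Of the 12 NuRD subunits, 3 rose and 0 fell in K264R, 3 and 1 in MOAP-1, and 1 and 0 in K278R tumors, led in K264R by MTA3 (0.83 ± 0.13, adjusted p = 0.00043) and the remodeling ATPase CHD4 (0.82 ± 0.28, adjusted p = 0.0352).

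Among 13 demethylation partners kept of 14, 2 rose and 2 fell in K264R, 2 and 1 in MOAP-1, and 1 and 2 in K278R tumors. APEX1, the endonuclease of base excision repair, rose by 1.33 ± 0.24 in K264R tumors (limma adjusted p = 0.00104) and IDH1, which makes the cosubstrate of the TET enzymes, by 0.94 ± 0.11 (adjusted p = 0.000112). CXXC5, a CpG-binding protein, fell by 0.68 ± 0.10 (adjusted p = 0.000253). In RASSF1A tumors 0 genes of any of the 7 lists passed in limma against vector, where 0% of all probes passed.

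Genes known to be held down by methylation were counted as well, though methylation was not measured in these tumors. Of 14 genes known to be silenced by promoter methylation in colon cancer that were kept, out of 17, 0 rose and 3 fell in K264R, and 1 rose and 1 fell in both MOAP-1 and K278R tumors. Their median differences were -0.07 in K264R, 0.09 in MOAP-1, and 0.32 in K278R, against -0.02, 0.01, and 0.04 over all genes. SFRP1, a secreted Wnt antagonist, fell by 1.09 ± 0.20 (limma adjusted p = 0.00145) and GATA4, a transcription factor, by 0.90 ± 0.14 (adjusted p = 0.000364) in K264R tumors. Of 11 germline genes kept out of 16, 2 rose and 1 fell in K264R, 3 and 1 in MOAP-1, and 2 and 0 in K278R, with medians of -0.02, -0.04, and 0.12. In K264R tumors the following passed. MAGEA4 rose by 1.47 ± 0.23 (adjusted p = 0.000479) and MAGEB2 by 0.40 ± 0.10 (adjusted p = 0.00693), while MAGEC1 fell by 0.71 ± 0.14 (adjusted p = 0.00182). MAGE genes are near-identical copies, so which copy a probe reads is uncertain.

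**Figure D5:**
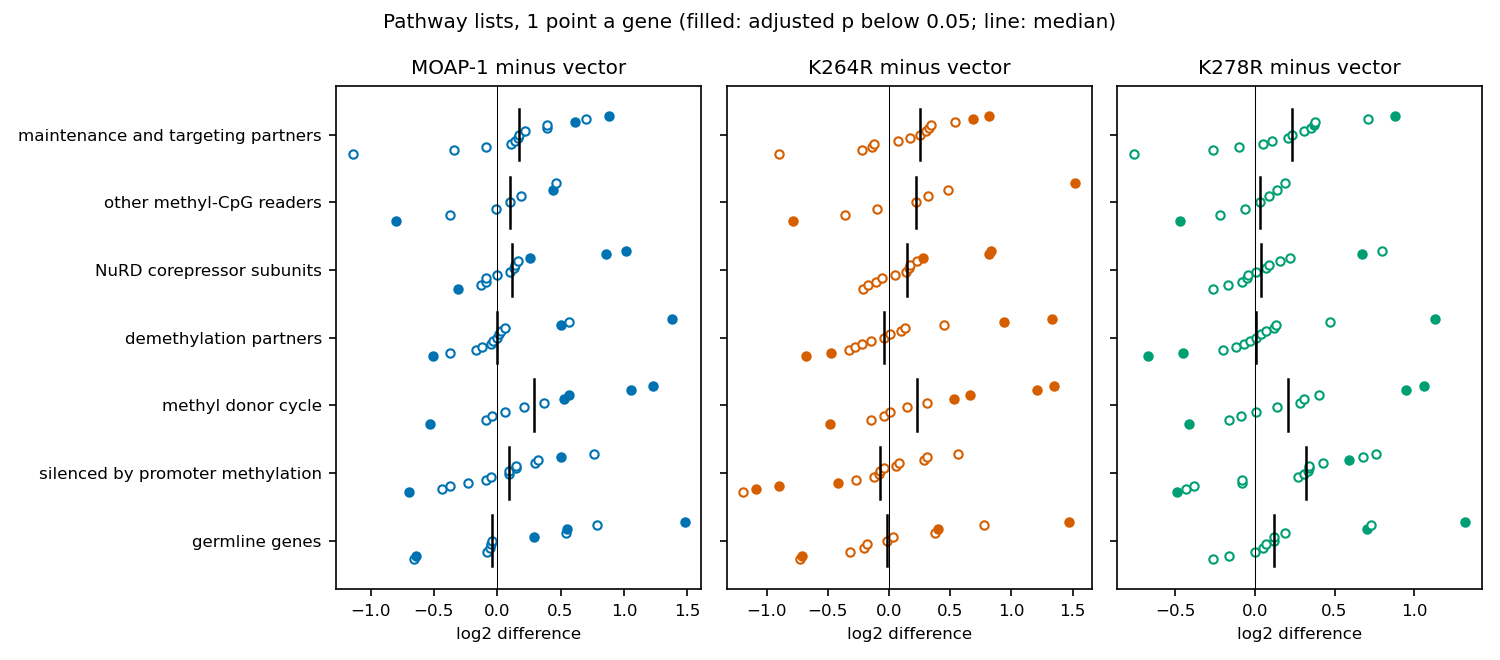
Difference from vector tumors (x axes, log2) of the genes of 7 pathway lists (rows) in MOAP-1, K264R, and K278R tumors, 1 point a gene at its brightest probe. Filled points have an adjusted p below 0.05 and the black line is the median of the list. In the methyl donor cycle 4 of 10 genes rose and 1 fell in MOAP-1 and in K264R tumors. Of all genes, 15.4% rose and 14.1% fell in MOAP-1, and 16.2% and 18.2% in K264R tumors.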

How the data were processed

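RNA of 15 tumors was hybridized to single-color Agilent arrays, 3 tumors for each of 5 constructs taken from the sample labels. The authors deposited, per array, background-corrected spot intensities from Agilent Feature Extraction (version 9.1 per the labels' processing notes, 10.5.1.1 per the file headers), with the median intensity of the spot and its local background. A series table deposited by the authors gives log2 values from GeneSpring GX. In 7 of its 15 columns the values match a different array with that construct, so that tumor numbers in MOAP-1, K278R, and RASSF1A are uncertain, while the construct is not. It was used as an alternative.

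The intensities of 43118 spots were log2-transformed after outlier spots had been left out, each array was shifted to place its 75th percentile at 0, and spots of a probe were averaged (34127 probes, 74.5% named through RefSeq of GRCh38.p14). Kept were the 30591 probes with a signal well above background in each of 3 tumors for at least 1 construct. One model of the 15 arrays was fitted (limma 3.58.1, R 4.3.3) with construct as its single term and 10 residual degrees of freedom. Benjamini-Hochberg adjustment was over all probes kept. The fit was tested on simulated data. Array data carry no counting depth, and the number of tumors limits the precision. No spot was saturated.

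The members, lists, and tests were chosen with earlier results of these data known. Every member probe is accounted for. All 15 values are given for probes that passed in a comparison against vector and for the brightest probe of each gene, and of a list the 2 largest rises and 2 largest falls among genes that passed are named, except that 1 of them is not reported here. MBD1, named for MOAP-1 tumors, follows the same rule in that comparison. The alternatives were quantile normalization, normexp background correction (offset 50, with and without spots of extreme local background), other filters, the authors' table, slide, scan day or replicate number as a block, only the arrays compared, the methods' t-test, a 1.5-fold threshold, and leaving out each array. Array brightness as a covariate was added after seeing the data. Figures were drawn with matplotlib 3.10.9 in Python 3.11.15.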

Additional observations from a re-analysis of the deposited data

Results flagged for a closer look

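MOAP-1 and RASSF1A tumors differed by a direct test in 3 of 15 member probes, against 37.2% of all probes, and each is lower in MOAP-1 tumors by limma. UHRF1 A_33_P3379454 differed by -0.58 (adjusted p = 0.00526), MBD2 A_23_P15864 by -0.28 (adjusted p = 0.0246), and TET2 A_33_P3238690 by -0.23 (adjusted p = 0.0434). Other probes of these genes did not pass or were not tested. MOAP-1 and RASSF1A arrays shared no slide, so slide and construct cannot be told apart here. With scan day as a block the comparison rests on RASSF1A tumor 3 alone.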

How the results depend on the processing

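Of the 2963 member values under other settings, 2843 kept their side of the threshold, 78 no longer passed, 41 passed anew, and 1 passed with its sign reversed. Most of the 2843 belong to values that did not pass in the main fit, since only 10 of 105 did. The 78 losses all fell on these 10 values, each read under 28 other settings. TET2 A_23_P350187 in K264R against vector was lost in 20 of 28, and TET2 A_33_P3238690 in MOAP-1 against RASSF1A in 16. The least lost was TET1 A_33_P3295550 in K264R against vector, in 1. The 2843 include values that changed sign without passing under either setting. The reversal was TET1 A_23_P322756 in K264R against vector, at -0.49 (limma adjusted p = 0.00707) under normexp without spots of extreme local background. Those spots lay on vector tumors 2 and 3 and K264R tumor 2 (6, 5, and 6). The counts of member probes past the test moved as follows, with the share of all probes in parentheses, and where no cause is named the cause was not tested. Under normexp 0 passed in MOAP-1 (1.76%), K264R (3.14%), and K278R (0.00327%) against vector, in MOAP-1 against RASSF1A (8.17%), and in the F test (6.57%). Without the extreme spots the counts were 3 (24.5%), 9 (57.7%), 0 (9.73%), 1 (26.9%), and 8 (55.9%). Quantile normalization gave 3 (30%), no filter 2 (26%), and slide as a random block 2 (35.4%) in MOAP-1 against vector. Scan day as a block gave 2 (30.5%) in the F test. For MOAP-1 against RASSF1A it leaves RASSF1A tumor 3 alone, so no count is given. Array brightness as a covariate gave 0 (25.7%) in MOAP-1 and 3 (15.2%) in K264R against vector, where brightness cannot be told apart from construct. Only the arrays compared gave 0 (3.96%) in K278R against vector, with fewer tumors in the fit. The 1.5-fold threshold gave 0 in MOAP-1 (16.6%) and K278R (10.9%) against vector and MOAP-1 against RASSF1A (21.2%), and 1 in K264R (19.5%). The methods' t-test gave, unadjusted, 4 (38.4%) in MOAP-1, 2 (25.4%) in K278R, and 2 (7.26%) in RASSF1A against vector and 4 (11.8%), 1 (6.07%), and 6 (42%) in MOAP-1 against K264R, K278R, and RASSF1A, and after adjustment 0 in MOAP-1 (15.1%) and K278R (0%) against vector and 1 (22.8%) in MOAP-1 against RASSF1A. Leaving out each array gave 0 to 2 in MOAP-1, 2 to 6 in K264R, 0 to 2 in K278R, and 0 in RASSF1A against vector, 0 in MOAP-1 against K264R and K278R, 1 to 5 in MOAP-1 against RASSF1A, and 3 to 6 in the F test. Slide as a fixed block left MOAP-1 against K278R and RASSF1A against vector at 0. Deviations from the construct mean correlated at -0.25 to 0.37 over the 30 pairs of tumors of the same number (median 0.115) and at -0.47 to 0.45 over 60 other pairs (median -0.04). All 10 pairs of tumors numbered 2 were positive (0.06 to 0.25), as were 6 and 5 of 10 pairs numbered 1 and 3, and 9 of 15 tumors correlated best with their own number. With some pairs below 0.1 and the tumor numbers uncertain, a pairing could not be settled, and the numbers were not used as one. The replicate block gave 1, 4, and 1 in MOAP-1, K264R, and K278R against vector, 2 in MOAP-1 against RASSF1A, and 4 in the F test, and under it TET2 A_23_P350187 in K264R against vector (limma adjusted p = 0.0532) and TET2 A_33_P3238690 in MOAP-1 against RASSF1A (0.0537) did not pass.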
